A study of Mus musculus with 3 samples.

Results

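RNA of reprogramming mouse embryonic fibroblasts (MEFs) on day 3 was compared with RNA of day 2, to ask which transcripts differed between these consecutive days of a time course. The members were the 3 libraries of day 3 and the 3 libraries of day 2, chosen by the day and the replicate number in their column names, and they made up 6 of 129 libraries in the deposited count table. The other libraries were further days of the course and an siRNA screen read on day 6. On both days the cells were primary wild-type MEFs of strain BL6 that had been incubated for 24 hours with lentiviruses at an MOI of 1, which carried the tet-inducible cassette of Oct4, Sox2, Klf4 and c-Myc (STEMCCA) and the rtTA transactivator. Time course cells received no siRNA and were only re-plated on gelatin before induction. The medium of both days held LIF, ascorbic acid at 50 µg/mL, the TGF-beta receptor inhibitor Alk5i at 0.25 µM, the GSK3 inhibitor chiron at 3 µM and doxycycline at 2 µg/mL, in DMEM with 10% FBS. The RNA was bulk RNA of a mixture of cells, and the study calls its sequencing replicates independent, without saying in the sources used here whether they were separate cultures, so that the spread between replicates behind the p-values, pooled over the 127 libraries of the fit, may be technical. Transcripts were counted by CEL-Seq2, which tags mRNA 3′ ends with unique molecular identifiers, and a level is given below as CPM, the counts of a gene scaled to a common library size.

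As background, doxycycline switches the cassette on, and the factors then bind fibroblast chromatin, silence fibroblast genes and later open pluripotency genes. In the first days the cells lose contractile fibers, many of them divide fast, and a mesenchymal-to-epithelial transition begins, while genes such as Nanog come on later. Fibroblasts also hold a large secretory and lysosomal apparatus, secrete and remodel collagen matrix, and answer crowding, oxidative stress or growth arrest with known sets of genes. Lists of these gene groups were examined.

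Total counts ran from 67740 to 111119 on day 2 and from 63122 to 128786 on day 3. By the distances between days, day 3 did not lie between day 2 and day 4. The root mean square difference between day means of log2(CPM + 10) over 3013 genes was 0.62 from day 2 to day 3 and 0.76 from day 3 to day 4, but 0.53 from day 2 to day 4. Day 5 departed in the same way, with 0.56 from day 4 to day 5 and 0.64 from day 5 to day 6, but 0.53 from day 4 to day 6. Such a departure was therefore not particular to day 3. Mitochondrial rRNA made up 8.50% to 9.36% of counts on day 2 and 12.5% to 13.9% on day 3, and the 20 most abundant genes 25.3% to 26.3% and 28.8% to 32.3%. The scaling factor by trimmed mean of M values (TMM) was 1.18 to 1.20 on day 2 and 1.05 to 1.07 on day 3. The total counts overlapped between the days and the other 3 measures did not. Those 3 measures did not overlap between days 1 and 2 or between days 5 and 6 either. The part of these measures in the gene results below was not tested.

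**Figure D1:**
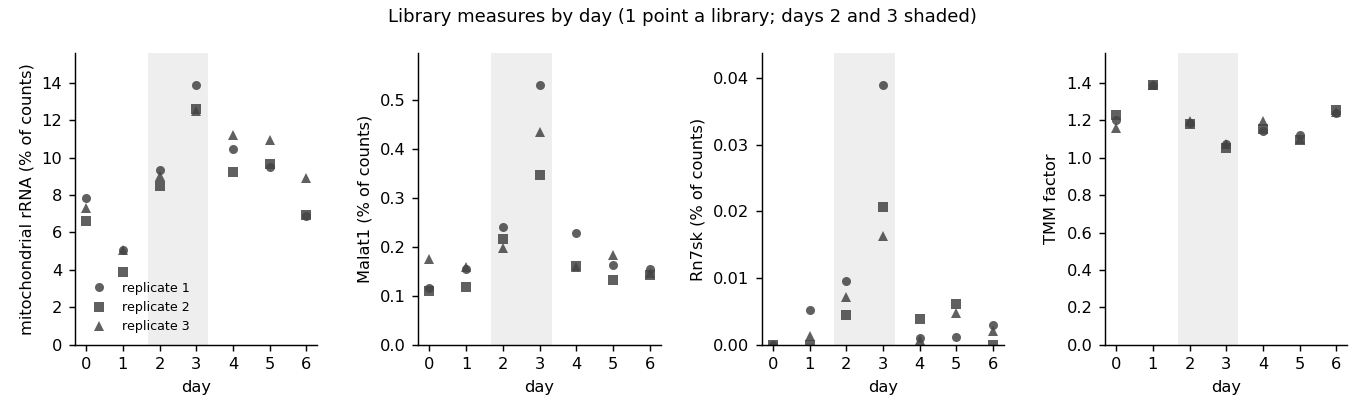
Share of counts (%) from mitochondrial rRNA, Malat1 and Rn7sk, and the TMM factor, on the y axes against day on the x axis, 1 point for each of 21 time course libraries. The 3 day 3 libraries hold the highest shares of all 3 RNAs, 12.5% to 13.9% for mitochondrial rRNA.

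Between day 2 and day 3, 85 genes changed at an adjusted p under 0.05 in edgeR's quasi-likelihood test, out of 3013 that passed the low-count filter (2.82%). Of these 44 were higher on day 3 (1.46%) and 41 were lower (1.36%). The named rises by size were headed by Mmp3, Hspa1b and Lama4 and the named falls by Sf3b5, Lsm7 and Npm3, while the lowest adjusted p belonged to Akr1b3. A difference in a gene may come from fewer cells of a type or from less RNA per cell, which bulk RNA cannot tell apart. The 3 libraries of a day did not overlap those of the other day for 43 of the 44 higher and 35 of the 41 lower genes, beside 564 of all genes tested (18.7%). Before adjustment, 474 genes had p under 0.05. The direction split moved with several settings. With RLE size factors, under which the median over all tested genes was 0.12 in place of -0.00 on the log2 scale, 100 genes were higher and 30 lower. The test by limma on the deposited log2 values, which differs in normalization, batch regression and genes tested as well, gave 10 higher and 31 lower, and the fit without replicate 3 gave 14 and 2. Leaving out replicate 1, 2 or 3 gave 41, 49 and 16 calls, and 10 of the 85 genes passed in each of these 3 fits: Akr1b3, Ctsb, Spp1, Tubb5, Malat1, Cyb5a, Prl2c2, Pclaf, mt-Nd4l and Fth1.

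**Figure D2:**
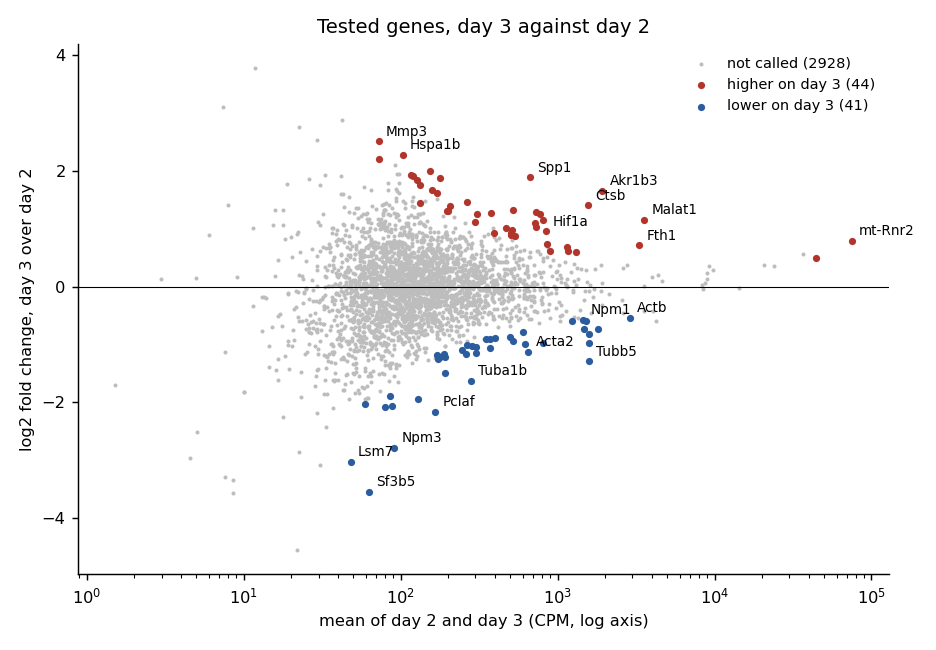
Log2 fold change of day 3 over day 2 (y axis) against the mean of both days in CPM (x axis, log scale) for 3013 tested genes. The 44 higher genes are red and the 41 lower ones blue, with log2 fold changes from 0.50 to 2.52 and from -3.54 to -0.53.

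Mmp3 (chr9:7445822-7455975, plus strand of GRCm38) had the largest log2 fold change among the raised genes, and it codes for stromelysin, a secreted protease that cuts matrix proteins. Its level was 0, 60.7 and 9.12 CPM on day 2 and 87.4, 163 and 114 CPM on day 3 in replicates 1 to 3. Every day 3 library lay above every day 2 library, though these values rest on 5 and 27 counts, a ratio of 5.53 with an exact 95% counting interval of 2.10 to 18.4. The fitted change was log2 2.52, SE 0.67, adjusted p = 0.0142 by edgeR. Mmp3 had a log2 fold change of 3.97 without replicate 2, and it did not pass without replicate 1 (adjusted p = 0.123) or replicate 3 (adjusted p = 0.243). Hspa1b (chr17:34956436-34959238, minus strand), a stress-inducible chaperone of the Hsp70 family, was at 24.5, 45.5 and 36.5 CPM and then at 175, 108 and 229 CPM. The groups did not overlap (log2 2.28, SE 0.62, adjusted p = 0.0160), on 9 and 42 counts. Hspa1b did not pass by edgeR without replicate 1 or without replicate 3 (adjusted p = 0.367 without replicate 3). At the other end were Sf3b5, Lsm7 and Npm3, described with the lowered genes. The promoter windows of Mmp3, Hspa1b, Lsm7 and Npm3, from 250 bases before to 50 after the start in RefSeq on GRCm38.p6, are shown so that the letters searched can be read in place. These genes have the largest changes in each direction apart from Sf3b5, whose promoter was not analysed here. Capitals mark matches on either strand to 5 motifs: the TATA box TATAAA, the CCAAT box, the GC box GGGCGG, the AP-1 site TGAGTCA and the heat shock core GAANNTTC. The AP-1 and heat shock motifs were chosen after the values were seen.
Mmp3 (chr9:7445572-7445871, plus strand): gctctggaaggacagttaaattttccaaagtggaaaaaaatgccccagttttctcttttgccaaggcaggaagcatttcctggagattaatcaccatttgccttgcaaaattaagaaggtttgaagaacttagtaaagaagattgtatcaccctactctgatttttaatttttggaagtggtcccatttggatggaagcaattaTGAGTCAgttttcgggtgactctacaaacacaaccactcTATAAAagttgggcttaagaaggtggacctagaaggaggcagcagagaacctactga
Hspa1b (chr17:34959189-34959488, minus strand): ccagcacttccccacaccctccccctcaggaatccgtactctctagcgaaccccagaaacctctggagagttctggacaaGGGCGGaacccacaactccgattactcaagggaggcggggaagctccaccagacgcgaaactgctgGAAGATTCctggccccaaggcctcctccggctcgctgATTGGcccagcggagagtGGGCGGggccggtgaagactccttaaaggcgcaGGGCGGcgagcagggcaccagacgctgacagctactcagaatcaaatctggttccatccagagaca
Lsm7 (chr10:80855160-80855459, minus strand): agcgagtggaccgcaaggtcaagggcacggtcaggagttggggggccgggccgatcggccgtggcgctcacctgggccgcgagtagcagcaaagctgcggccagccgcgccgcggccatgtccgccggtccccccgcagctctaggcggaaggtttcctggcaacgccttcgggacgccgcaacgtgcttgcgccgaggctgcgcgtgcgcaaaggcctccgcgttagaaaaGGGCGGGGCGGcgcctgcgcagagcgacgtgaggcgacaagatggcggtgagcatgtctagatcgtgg
Npm3 (chr19:45749516-45749815, minus strand): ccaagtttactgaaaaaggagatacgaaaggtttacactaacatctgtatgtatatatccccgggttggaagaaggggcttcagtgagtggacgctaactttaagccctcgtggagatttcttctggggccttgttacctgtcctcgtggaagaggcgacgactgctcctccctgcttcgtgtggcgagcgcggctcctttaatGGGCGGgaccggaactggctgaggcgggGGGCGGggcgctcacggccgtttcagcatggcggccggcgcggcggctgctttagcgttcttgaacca
The window of Mmp3 held 1 TATA box and 1 AP-1 site, motifs that 13.6% and 5.20% of all 32851 windows hold. The window of Hspa1b held 3 GC boxes, 1 CCAAT box and 1 heat shock core, which 35.7%, 37.4% and 7.86% of all windows hold. The windows of Lsm7 and Npm3 held 2 GC boxes each, overlapping in Lsm7, and none of the other motifs. These matches are a description of letters only.

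Spp1 (chr5:104435118-104441050, plus strand), which codes for the secreted phosphoprotein osteopontin, was at 306, 288 and 264 CPM on day 2 and at 734, 1174 and 1232 CPM on day 3. The lowest day 3 library was far above the highest day 2 library (log2 1.90, SE 0.25, adjusted p = 1.48e-09 by edgeR). The annotated gene Gm42793 overlaps it on the same strand. Dcn, the collagen-binding proteoglycan decorin, had 85.7, 30.3 and 27.4 CPM and then 122, 253 and 185 CPM (log2 1.93, SE 0.47, adjusted p = 0.00496). Without replicate 1 the value of Dcn was 2.76, and it did not pass without replicate 2 (adjusted p = 0.147) or replicate 3 (adjusted p = 0.203). Lama4, a laminin chain of basement membranes, had 24.5, 30.3 and 18.2 CPM and then 175, 108 and 79.2 CPM (log2 2.20, SE 0.66, adjusted p = 0.0402), on 6 and 25 counts. Tnc, the matrix glycoprotein tenascin C, rose 2.72-fold (adjusted p = 0.0484), and Grem1, a secreted BMP antagonist, 1.91-fold (adjusted p = 0.0103). Neither Lama4 nor Tnc passed in any fit that left out a replicate. In none of these 5 genes did the groups overlap. Of 23 tested genes of the list of matrix proteins and their crosslinking, 2 rose (Dcn and Tnc) and 0 fell, with a median log2 fold change of 0.28 beside -0.00 over all genes tested. Its most abundant members did not pass, with Sparc at 1617 and 1533 CPM and Thbs1 at 1133 and 1119 CPM. Loxl1, a collagen crosslinking enzyme, had a log2 fold change of -1.25 that did not pass either (adjusted p = 0.131). Of 10 matrix proteases and inhibitors 2 rose, Mmp3 and Ctsb, with a median of 0.43, and the inhibitor Timp2 had 888 and 1057 CPM.

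Several lysosomal genes rose between the days. Ctsb (chr14:63122462-63145923, plus strand), the lysosomal protease cathepsin B, was at 808, 1001 and 784 CPM on day 2 and at 2361, 2059.7 and 2331 CPM on day 3. The groups were far apart (log2 1.41, SE 0.17, adjusted p = 4.46e-11 by edgeR), and the gene passed in all 11 alternative analyses. Lamp1, a glycoprotein of the lysosomal membrane, had 489.9, 364 and 547 CPM and then 927, 1084 and 950.1 CPM (log2 1.03, SE 0.21, adjusted p = 0.000267). Cd63, a tetraspanin of late endosomes and lysosomes, rose 1.53-fold (adjusted p = 0.0264), and reads may be split between it and its near-identical pseudogene Cd63-ps. Of 12 lysosomal genes tested, these 3 rose and 0 fell, and 11 had log2 fold changes above 0 with a median of 0.65. With RLE size factors, and with DESeq2, 6 of them were called raised. At an unadjusted p under 0.05 there were 7 of the 12, beside 474 of all 3013 genes tested. Among the 7 were Grn, the progranulin gene (234 to 446 CPM, log2 0.88, adjusted p = 0.0875), and Lamp2 (384 to 623 CPM, log2 0.67, adjusted p = 0.102). The summed level of the 18 listed lysosomal genes was 5474, 5280 and 5534 CPM on day 2 and 9006, 9449 and 9078 CPM on day 3, without overlap. Outside the list, the lysosomal peptidase Tpp1 rose 1.89-fold (adjusted p = 0.0382). Sqstm1, which codes for the autophagy receptor p62, went from 98.0, 212 and 128 CPM to 349.7, 361 and 431 CPM (log2 1.47, SE 0.33, adjusted p = 0.00176).

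Akr1b3 (chr6:34302434-34317478, minus strand), an aldose reductase, had the lowest adjusted p of the comparison. Its level was 1065, 486 and 1213 CPM on day 2 and 3148, 1933 and 3756 CPM on day 3. Replicate 2 was the lowest on both days, and the groups did not overlap (log2 1.66, SE 0.19, adjusted p = 1.23e-12 by edgeR). Near-identical copies are annotated, among them Gm12138. Hmox1, heme oxygenase 1, which breaks heme down, was at 196, 531 and 611 CPM and then at 962, 1120.2 and 871 CPM (log2 1.10, SE 0.24, adjusted p = 0.00151). Fth1, the ferritin heavy chain that stores iron, was at 2511, 2534 and 2452 CPM and then at 4127, 4426 and 3783 CPM (log2 0.71, SE 0.15, adjusted p = 0.000691). Tfrc, the transferrin receptor that brings iron into cells, fell from 539, 561 and 447 CPM to 157, 416 and 264 CPM (log2 -0.88, SE 0.25, adjusted p = 0.0303). The groups did not overlap for any of these 4 genes. The ferritin light chain gene Ftl1 had 1665 and 2143 CPM and did not pass (log2 0.37, adjusted p = 0.231). Cyb5a, the electron carrier cytochrome b5, rose 2.46-fold (adjusted p = 2.61e-07). Of 17 tested genes of the antioxidant and metallothionein list 3 rose, Akr1b3, Hmox1 and Fth1, and 0 fell, with a median log2 fold change of 0.37. Members with values below 0 included Txn1, thioredoxin (98.4 to 23.8 CPM, log2 -1.92, adjusted p = 0.0563), and Prdx1, a peroxiredoxin (1496 to 1052 CPM, log2 -0.52, adjusted p = 0.0936).

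Among regulators, Hif1a, the oxygen-sensitive transcription factor subunit, was at 674, 470.3 and 547 CPM on day 2 and at 1609, 741 and 994 CPM on day 3 (log2 0.96, SE 0.22, adjusted p = 0.00200 by edgeR). Replicate 1 of day 3 held the highest value and the groups did not overlap. Twist2, a transcription factor of mesenchyme, rose from 184, 167 and 182 CPM to 559.6, 397 and 361 CPM (log2 1.26, SE 0.30, adjusted p = 0.00516). It was the 1 called gene of 13 tested mesenchymal regulators and surface proteins, whose median was 0.09. The zinc finger gene Tshz1 rose 3.60-fold (adjusted p = 0.0134) on 15 and 50 counts. Of 5 tested genes of the low-oxygen list none was called, with a median of 0.48, Adm at 109.6 and 165 CPM and Bnip3l at 67.0 and 197 CPM (adjusted p = 0.702 and 0.0555). Pkm, a pyruvate kinase, rose 1.51-fold (adjusted p = 0.0303), the 1 called gene of 10 glycolytic genes with a median of 0.18, of which 3 were called raised with RLE size factors. Cryab, a small heat shock protein, rose 2.41-fold (adjusted p = 0.0142) with overlapping groups. In the list of chaperonins and heat shock proteins, Hspa1b rose and Cct5, a subunit of the chaperonin that folds actin and tubulin, fell 2.26-fold (adjusted p = 0.0413), while 18 of 21 tested members had log2 fold changes below 0 with a median of -0.22. Gsn, which severs actin filaments, rose 1.98-fold (adjusted p = 0.0103). The cytoskeletal linker gene Dst and the dynein heavy chain gene Dync1h1 rose 3.76-fold and 3.38-fold (adjusted p = 0.00496 and 0.0118) on 14 and 47 and on 15 and 45 counts. In replicate 2, Dst was at 60.7 and 72.3 CPM, and its log2 fold change ran from 1.28 to 2.28 over the alternatives. Neither gene passed by edgeR without replicate 1 or without replicate 3 (adjusted p = 0.423 for Dst without replicate 3). App, the amyloid precursor protein, and its adaptor Apbb2 rose as well, with log2 fold changes of 0.87 and 1.68 (adjusted p = 0.0142 and 0.0465), though the 3′ end of Apbb2 matches other transcripts.

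**Figure D3:**
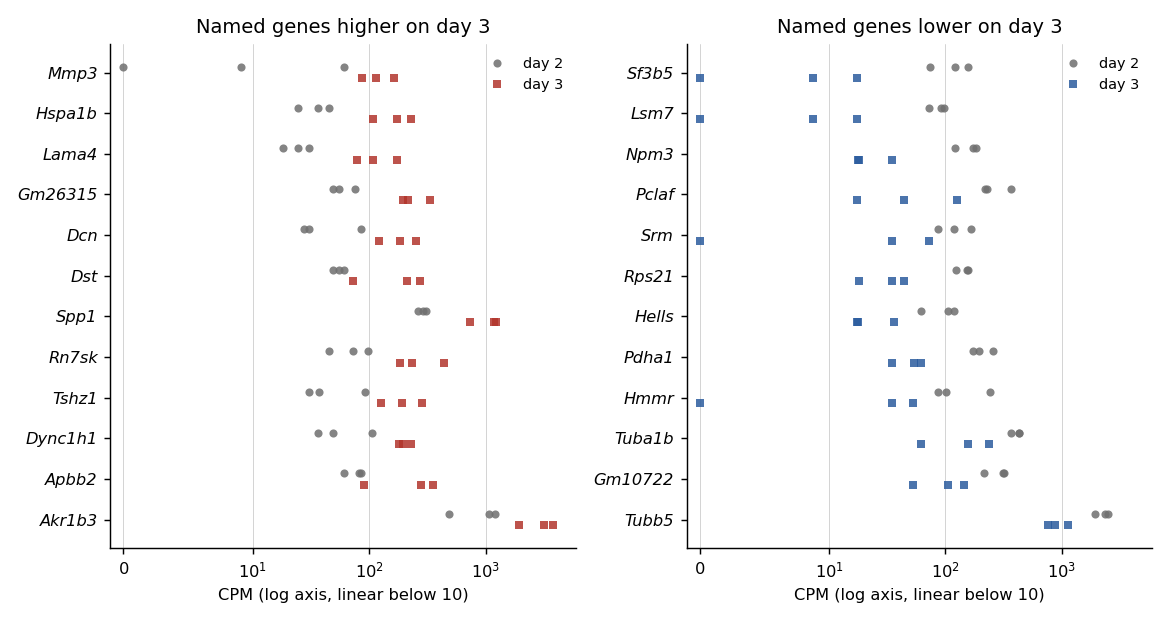
Level in each library (x axis, CPM, log scale and linear below 10) for the 12 named genes with the largest rises and the 12 with the largest falls, with day 2 as circles and day 3 as squares, 1 point a library. In none of the 24 genes do the squares and the circles overlap in range, and Mmp3, Sf3b5, Lsm7, Srm and Hmmr each include a library at 0.

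Several noncoding RNAs of the nucleus and of mitochondria rose. Malat1 (chr19:5795690-5802672, minus strand), a long RNA of nuclear speckles, was at 2449, 2215 and 2006 CPM on day 2 and at 5946, 3939 and 4918 CPM on day 3 (log2 1.16, SE 0.17, adjusted p = 2.56e-08 by edgeR). Its share of all counts was 0.198% to 0.241% on day 2 and 0.345% to 0.531% on day 3. Rn7sk, the 7SK RNA that holds the elongation factor P-TEFb inactive, had 98.0, 45.5 and 72.9 CPM and then 437, 235 and 185 CPM (log2 1.88, SE 0.48, adjusted p = 0.00998). Its near-identical copies Gm26315 and Gm24447 had log2 fold changes of 2.00 and 1.40, so that these 3 are not separate measurements. Neither Malat1 nor Rn7sk overlapped between the days. The mitochondrial rRNAs mt-Rnr2 and mt-Rnr1 rose 1.73-fold and 1.41-fold (adjusted p = 0.000267 and 0.0421). Of 13 mitochondrially encoded mRNAs 1 passed, mt-Nd4l, at 2.39-fold (adjusted p = 0.000118), which overlaps mt-Nd4 and has a near-identical copy, Gm10222. With RLE size factors, and with DESeq2, 5 of the list were called raised. The median of that list was 0.24, with mt-Co1 at 20899.7 and 27212 CPM and mt-Nd1 at 14329 and 14268 CPM, neither of which passed. Of 9 tested nuclear noncoding RNAs and snoRNA hosts, Malat1 was the 1 called gene, and the median was 0.17.

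Tubulins had the lowest median of the lists with a called member. Tubb5 (chr17:35833921-35838306, minus strand), a beta-tubulin, was at 2351, 2488 and 1915 CPM on day 2 and at 874, 1120.2 and 757 CPM on day 3. The day 3 libraries were all below those of day 2 (log2 -1.29, SE 0.17, adjusted p = 1.48e-09 by edgeR), and the gene passed in all 11 alternative analyses. Tuba1b, an alpha-tubulin, went from 367, 425 and 429 CPM to 157, 235 and 61.6 CPM (log2 -1.62, SE 0.30, adjusted p = 7.85e-05). Without replicate 3, Tuba1b had -0.97 (adjusted p = 0.260). Tuba1c fell 2.21-fold (adjusted p = 0.00941), and the near-identical Gm17383 was called lower as well (adjusted p = 0.0441). All 7 tested tubulins had log2 fold changes below 0, 3 of them passed, and their median was -1.25, or -1.13 with RLE size factors. The summed level of the 11 listed tubulins was 4042, 4354 and 3793 CPM on day 2 and 1469, 2421 and 1548 CPM on day 3, where replicate 2 was the highest. Stmn1, which takes microtubules apart, fell 2.38-fold (adjusted p = 0.0421), but its groups overlapped and replicate 2 went the other way, from 137 to 163 CPM. Without replicate 3 the log2 fold change of Stmn1 was -0.45 (adjusted p = 0.817).

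3 actin genes fell too. Actg1, cytoplasmic gamma-actin, was at 1666, 2139 and 2462 CPM and then at 1084, 1138 and 994 CPM (log2 -0.98, SE 0.19, adjusted p = 8.15e-05 by edgeR). Acta2 (chr19:34241090-34255590, minus strand), the smooth muscle actin of contractile fibroblasts, was at 686, 895 and 1103 CPM and then at 437, 361 and 431 CPM (log2 -1.13, SE 0.25, adjusted p = 0.00140). The groups did not overlap for either gene. Actb, beta-actin, fell 1.45-fold (adjusted p = 0.0469), and both it and Actg1 have near-identical copies. Of 27 tested contractile and actin cytoskeleton genes, these 3 fell and 0 rose, and 23 had log2 fold changes below 0 with a median of -0.53. Members that did not pass included the tropomyosin gene Tpm2 (99.5 to 29.6 CPM, adjusted p = 0.153) and the vinculin gene Vcl (113 to 46.9 CPM, adjusted p = 0.267). The membrane-binding annexin Anxa2 fell 2.08-fold (adjusted p = 0.0118), the 1 called gene of 12 S100 proteins, galectins and annexins, with a median of -0.34. Arpc5, a subunit of the complex that branches actin, fell 2.13-fold (adjusted p = 0.0352) with overlapping groups. Acta2 was also the 1 called gene of 9 TGF-beta responsive genes, whose median was -0.10, or 0.02 with RLE size factors.

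A few genes of cell division passed the test, and all of these fell. Top2a, the topoisomerase that untangles chromosomes, had 245, 364 and 201 CPM on day 2 and 139.9, 90.3 and 106 CPM on day 3 (log2 -1.22, SE 0.34, adjusted p = 0.0222 by edgeR). Hmmr, a spindle-associated protein, had 85.7, 243 and 100.3 CPM and then 35.0, 0 and 52.8 CPM (log2 -1.90, SE 0.53, adjusted p = 0.0231). The value of Hmmr rests on replicate 2, without which it was -0.99 (adjusted p = 0.530), and it was -2.97 without replicate 3, where it did not pass either. Pclaf (chr9:65890237-65903266, plus strand), a factor that binds the replication clamp PCNA, went from 220.4, 364 and 228 CPM to 17.5, 126 and 44.0 CPM (log2 -2.16, SE 0.41, adjusted p = 7.85e-05), and it passed in all 11 alternative analyses. Hells, a chromatin remodeler, and Smc4, a condensin subunit, fell 4.09-fold and 2.31-fold (adjusted p = 0.0431 and 0.0413). Neither Hells nor Smc4 passed in any fit that left out a replicate. For all 5 of these genes every day 3 library was below every day 2 library. Of 23 tested mitosis genes 2 fell and 0 rose, with 20 below 0 and a median log2 fold change of -0.75. Of 10 DNA replication genes 1 fell, Hells, with all 10 below 0 and a median of -0.79. The cyclin genes Ccna2 (133 to 35.5 CPM) and Ccnb1 (113 to 36.0 CPM) did not pass, with adjusted p of 0.0662 and 0.0839. Mcm2, of the replicative helicase, went from 108 to 38.3 CPM (adjusted p = 0.124), and Pcna was at 104 and 97.8 CPM. The summed level of the 40 listed mitosis genes was 3025, 3566 and 2617 CPM on day 2 and 1661, 2475 and 1469 CPM on day 3, and that of the 33 listed replication genes 1188, 1881 and 1249 CPM and then 804, 1066 and 765 CPM. Replicate 2 was the highest on both days in both sums, and neither sum overlapped between the days. Of the list of homologous recombination repair, 2 genes were tested, Atm at 86.5 and 41.6 CPM and Chek1 at 34.6 and 12 CPM, and neither was called (adjusted p = 0.522 and 0.316). Over the 3 libraries of each day, Brca1 had 1 and 3 counts, Bard1 3 and 0 and Wdr5 7 and 8, too few for a difference to be detectable.

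The 3 largest falls were of genes of the nucleolus and of RNA processing, on few counts. Npm3 (chr19:45747734-45749591, minus strand), a nucleoplasmin family protein, was at 171, 121 and 182 CPM on day 2 and at 35.0, 18.1 and 17.6 CPM on day 3 (log2 -2.79, SE 0.61, adjusted p = 0.00151 by edgeR). Sf3b5 (chr10:13005343-13009183, plus strand), a subunit of the splicing factor SF3b, was at 73.5, 121 and 155 CPM and then at 17.5, 0 and 8.80 CPM (adjusted p = 0.000366). It had 31 and 2 counts, a ratio of day 2 to day 3 of 15.1 with an exact 95% counting interval of 3.85 to 131. The fitted log2 fold change of Sf3b5 was -3.54, and -4.31 without replicate 1, and it did not pass without replicate 3 (adjusted p = 0.174). Lsm7 (chr10:80852821-80855209, minus strand), part of the ring that binds U6 RNA, was at 98.0, 91.0 and 72.9 CPM and then at 17.5, 0 and 8.80 CPM (adjusted p = 0.00941), on 22 and 2 counts with a ratio of 10.8 (interval 2.64 to 94.3). In each of these 3 genes all day 3 libraries were under the lowest day 2 library. Srm, the spermidine synthase, fell 4.22-fold (adjusted p = 0.0303), Npm1, nucleophosmin, 1.49-fold (adjusted p = 0.0303), and Set, a histone chaperone, 1.82-fold (adjusted p = 0.0136). Without replicate 3 the log2 fold change of Srm was -1.14 (adjusted p = 0.574), against -2.08 with all replicates, and without replicate 2 it was -2.96. Srm, Npm1 and Set were the 3 called genes of 22 in the list of ribosome biogenesis and nucleolus, whose median was -0.34. Ncl, nucleolin, had 1215 and 869.9 CPM and did not pass (adjusted p = 0.0868). The summed level of that list was 6675, 7768 and 6573 CPM on day 2 and 4564, 5998 and 4522 CPM on day 3. Ptma, prothymosin alpha, and Ranbp1, of nuclear transport, fell by 0.59 and 0.93 on the log2 scale (adjusted p = 0.0118 and 0.00406). Srsf3, a splicing factor, fell 1.73-fold (adjusted p = 0.0162) with overlapping groups, as the 1 called gene of 22 hnRNP and SR proteins, whose median was -0.22.

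Single genes of other lists also fell. Rps21, a protein of the small ribosomal subunit, was at 122, 152 and 155 CPM and then at 35.0, 18.1 and 44.0 CPM (log2 -2.07, SE 0.52, adjusted p = 0.00770 by edgeR), while the median of 66 tested ribosomal protein genes was -0.06, or 0.05 with RLE size factors, so that no direction is given for them. Pdha1, of the pyruvate dehydrogenase complex, was at 196, 258 and 173 CPM and then at 35.0, 54.2 and 61.6 CPM (log2 -1.94, SE 0.44, adjusted p = 0.00240). Neither gene's groups overlapped. In the nuclear-encoded respiratory chain, Cox4i1 rose 1.53-fold (adjusted p = 0.0395) and Ndufb6 fell 2.25-fold (adjusted p = 0.0492) among 48 tested genes with a median of -0.33. Gm10722, Gm10719, Gm10717, Gm10715 and Gm21738 fell as well, Gm10722 from 318, 212 and 310.0 CPM to 52.5, 145 and 106 CPM (adjusted p = 0.00770), and since these predicted genes are near-identical to each other they are not separate measurements. The same holds for Gm12346 and Gm5844, copies of Hsp90aa1, and for Gm12355, a copy of Srsf3. Of the 85 called genes, 19 of the higher and 28 of the lower ones had a near-identical copy or an overlapping gene on the same strand, among them Akr1b3, Spp1, Malat1, Hif1a, Tuba1b, Pclaf, Top2a and Npm1, and their counts are uncertain to that extent.

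**Figure D4:**
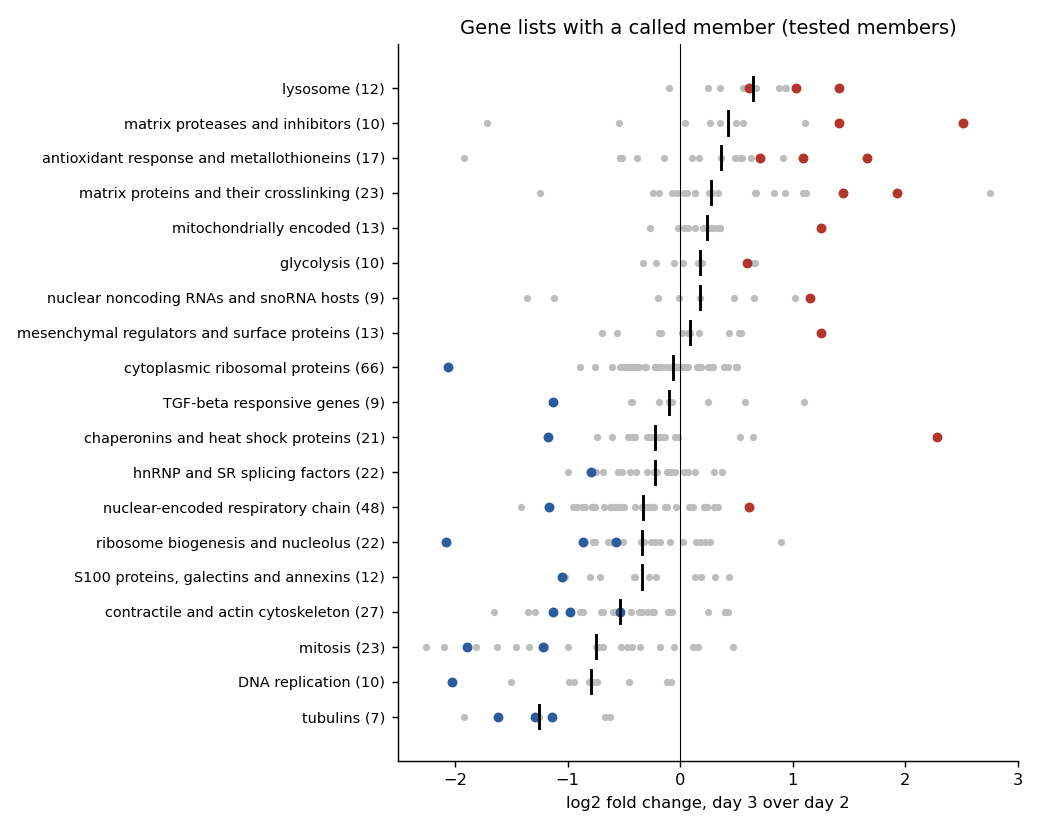
Log2 fold change of day 3 over day 2 (x axis) for each tested member of the 19 gene lists with a called member (y axis, number tested in parentheses), with called genes in red or blue, others in grey and the list median as a bar. The tubulin median is the lowest at -1.25 and the lysosome median the highest at 0.65.

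In all, 32 of 504 tested genes in the 38 lists were called (6.35%, beside 2.82% of all genes tested), and 53 called genes were in no list. The lists were written with earlier results of these data known, which favors a higher share among listed genes. Lists of cell identity were too shallow to read. Among 24 epithelial genes 2 were tested, Perp with 29 and 20 counts and Krtdap with 2 and 0, with a median of -1.42, and Cdh1, the epithelial cadherin, had 3 and 2 counts. Among 25 pluripotency genes Apela (1 and 2 counts) and L1td1 (1 and 0) were tested, with a median of -0.40, and Nanog had 0 and 1 counts. Of the cassette's factors, Pou5f1 and Sox2 had no count, Klf4 5 and 6 counts and Myc 1 and 2, and 3′ tags of the endogenous genes do not measure the cassette. Of 17 Wnt target genes none was tested, with 3 and 2 counts of Axin2. The cells carried fibroblast markers on both days: 8 of 11 were tested, with Vim at 1019 and 1076 CPM and Col1a2 at 869.5 and 844 CPM and only Dcn called. Their summed level was 3756 to 3990.3 CPM on day 2 and 3585 to 4398 CPM on day 3. Markers of other cell types were low. Blood and keratinocyte markers had no count, endothelial markers 3 and 3 counts, muscle markers 2 and 0, epithelial markers 12 and 14 and pluripotent markers 2 and 2. Macrophage markers had 14 and 21 counts, of which Lyz2 held 13 and 19, while Cd68, Csf1r and Adgre1 had none. Neural markers had 41 and 21 counts, of which Tubb3 held 26 and 9 and Stmn2 14 and 10.

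The other lists without a call are given by their median log2 fold change and their 2 most abundant tested members, with levels on day 2 and day 3. The endoplasmic reticulum chaperones had 0.35 over 8 genes (Hsp90b1 at 1111 and 1448 CPM and Canx at 846 and 985 CPM), and all 8 were above 0. Immediate early genes had 0.83 over 6 genes (Ier3 at 257 and 517 CPM and Jund at 205 and 186 CPM), and IGF binding proteins 0.93 over 3 genes (Igfbp7 at 165 and 267 CPM and Igfbp5 at 42.6 and 143 CPM). Sterol and fatty acid synthesis had 0.39 over 12 genes (Scd2 at 943 and 1280.4 CPM and Scd1 at 236 and 417 CPM). Chemokines and interleukin 6 had 0.39 over 5 genes (Cxcl5 at 573 and 668 CPM and Ccl7 at 300.3 and 505 CPM). The ATF4 response and cystine uptake list had 0.26 over 10 genes (Psat1 at 554 and 604 CPM and Slc3a2 at 265 and 398 CPM). Interferon-stimulated genes had 0.38 over 4 genes (Ifitm3 at 559 and 712 CPM and Ifitm2 at 286 and 366 CPM), and p53 targets 0.11 over 12 genes (Ccng1 at 1291 and 1419 CPM and Cdkn1a at 1089 and 1193 CPM). The proteasome had -0.28 over 23 genes (Psma6 at 420.0 and 407 CPM and Psma4 at 392 and 239 CPM), and histones -0.31 over 6 genes (H2afz at 696 and 527 CPM and H3f3b at 441 and 473 CPM). Translation factors had -0.05 over 30 genes (Eef1b2 at 1101 and 1318 CPM and Eif3a at 924 and 814 CPM), a median that became 0.08 with RLE size factors. Imprinted growth genes had 0.11 over 8 genes (H19 at 1245 and 891 CPM and Igf2 at 406 and 533 CPM), and LIF and STAT3 genes -0.26 over 2 genes (Jak1 at 352 and 228 CPM and Il6st at 66.0 and 64.3 CPM). None of these genes passed the test. With RLE size factors 1 gene was called raised in each of the lists of endoplasmic reticulum chaperones, chemokines and interleukin 6, immediate early genes, interferon-stimulated genes, translation factors and the low-oxygen response.

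Levels over days 0 to 6 placed the step between its neighbors. Akr1b3 had mean levels of 2011, 289.5, 921, 2946, 232, 266 and 239 CPM on days 0 to 6. The day 3 mean was the highest of the course and the mean on day 4 was under that of day 2. Ctsb was at 774, 594, 865, 2251, 1027, 865 and 946 CPM, and Hmox1 at 222, 504, 446, 984, 202, 147 and 246 CPM, so that both had their highest mean on day 3. Spp1 and Hif1a were high on day 0 and again on day 3, Spp1 at 1436, 128, 286, 1047, 327, 718 and 676 CPM and Hif1a at 1060.5, 292, 564, 1115, 317, 123 and 229 CPM. Among the lowered genes, Tubb5 was at 2506, 3247, 2251, 917, 2073, 1036 and 2493 CPM, and Top2a at 328, 463, 269.9, 112, 399, 288 and 416 CPM, with the lowest mean on day 3. Acta2 instead had a lower mean on each day up to day 5, at 4046, 2102, 895, 409.9, 259, 139.8 and 219.7 CPM. Day 3 held the highest mean of the 7 days for 31 of the 44 raised genes (70.5%, beside 16.3% of all genes tested) and the lowest for 27 of the 41 lowered genes (65.9% beside 17.4%), shares that the choice of genes by their day 3 level favors.

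**Figure D5:**
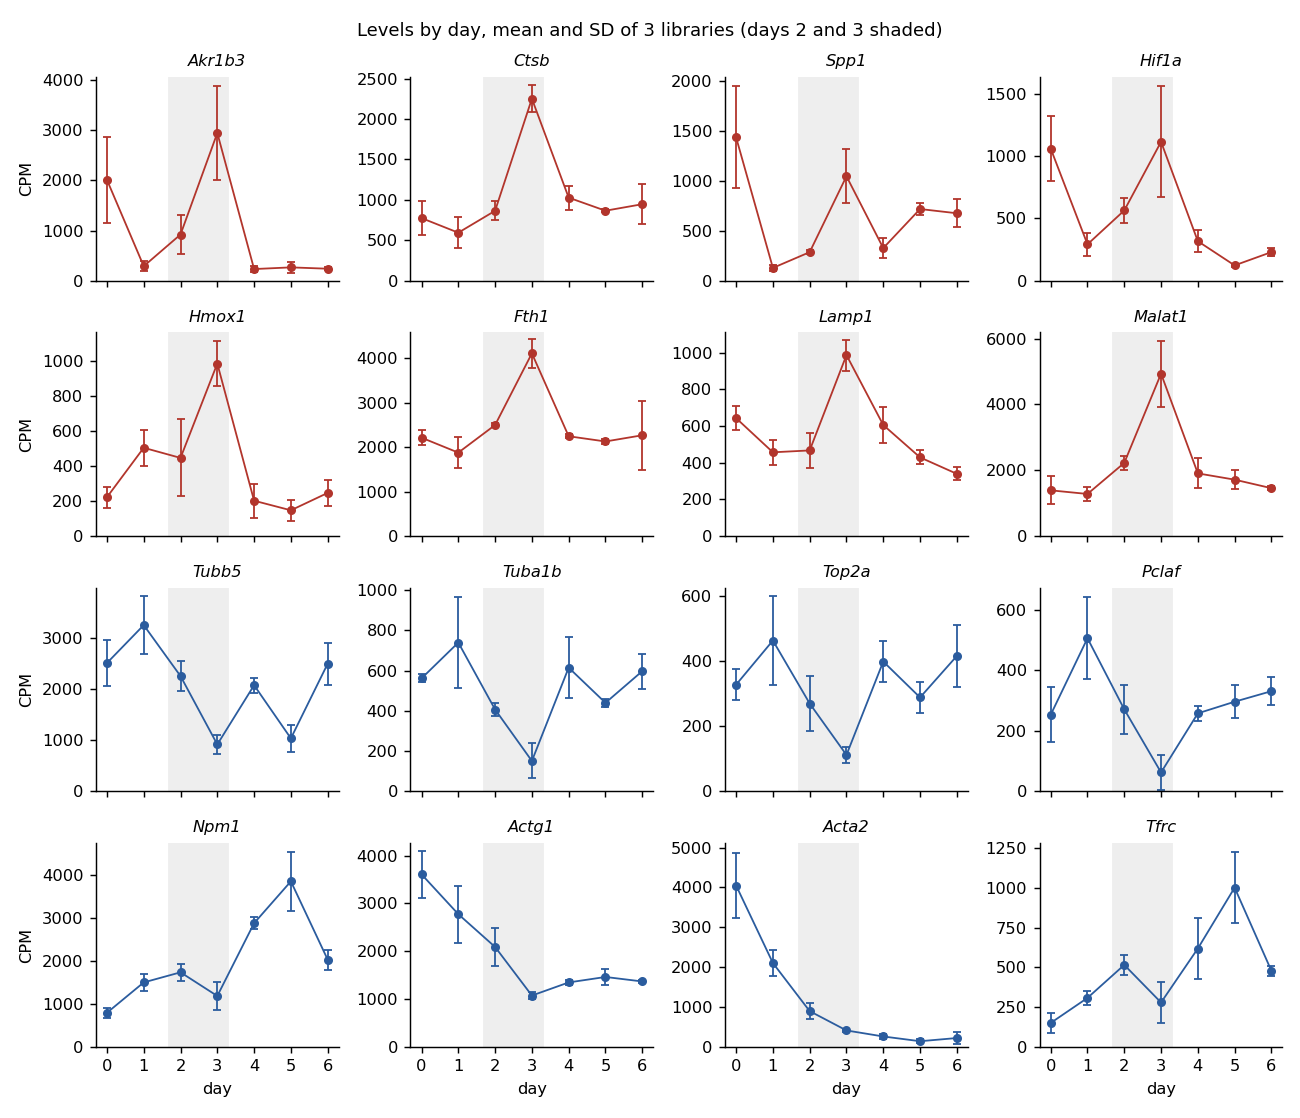
Mean level in CPM (y axis) by day (x axis) with SD over 3 libraries for 8 raised genes (red) and 8 lowered genes (blue), with days 2 and 3 shaded. Akr1b3, Ctsb, Hmox1, Fth1, Lamp1 and Malat1 peak on day 3 and Tubb5, Tuba1b, Top2a and Pclaf are lowest there, while the mean of Acta2 is 139.8 CPM on day 5.

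The steps on either side, from the same fit, share the day 2 or the day 3 libraries with the comparison, so that the values of each step are set side by side and a high or low day 3 level enters the step before and the step after with opposite sign. From day 1 to day 2, 145 genes changed (4.81%), and from day 3 to day 4, 360 genes (11.9%). Akr1b3 had log2 fold changes of 1.7 (SE 0.26, adjusted p = 1.37e-07) from day 1 to day 2 and of -3.63 (SE 0.22, adjusted p = 2.95e-37) from day 3 to day 4 by edgeR. Ctsb had 0.60 (adjusted p = 0.0755) and -1.15 (adjusted p = 9.81e-09), and Lamp1 0.07 (adjusted p = 0.941) and -0.72 (adjusted p = 0.00520). Of the genes lowered on day 3, Tubb5 had -0.53 (adjusted p = 0.0203) and 1.19 (adjusted p = 9.81e-09), Tuba1b -0.92 (adjusted p = 0.00290) and 2.19 (adjusted p = 7.61e-11), and Acta2 -1.22 (adjusted p = 2.87e-06) and -0.71 (adjusted p = 0.0901). The step to day 3 differed from the step before it for 29 genes (0.962%), in each of which the day 3 step was the lower one, and from the step after it for 283 genes (9.39%).

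Day 2 lay nearer to day 4 than to day 3, as day 4 lay nearer to day 6 than to day 5. Day 4 was set against day 2 without the day 3 libraries, a comparison added after seeing the data. It called 59 genes (1.96%), 23 higher and 36 lower on day 4. Of the 44 genes raised on day 3, 0 were called higher on day 4 than on day 2 by edgeR and 4 were called lower: Akr1b3 (-1.97, SE 0.24, adjusted p = 5.90e-11), Hmox1, Hif1a and Prl2c3. For Hmox1 the log2 fold change was -1.20 (SE 0.29, adjusted p = 0.00700), and for Hif1a -0.85 (SE 0.24, adjusted p = 0.0341). For Ctsb it was 0.27 (SE 0.18, adjusted p = 0.580) and for Spp1 0.18 (SE 0.29, adjusted p = 0.871). Of the 41 lowered genes 4 were called lower on day 4, Acta2, Actg1 and the predicted genes Gm42666 and Gm21738, with -1.84 (SE 0.25, adjusted p = 4.26e-09) for Acta2 and -0.63 (SE 0.17, adjusted p = 0.0234) for Actg1. Npm1 was the 1 lowered gene called higher, at 0.74 (SE 0.15, adjusted p = 0.000465). Tubb5 had -0.10 (SE 0.15, adjusted p = 0.850), Top2a 0.63 (SE 0.25, adjusted p = 0.192) and Pclaf -0.03 (SE 0.28, adjusted p = 0.984).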

How the data were processed

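RNA of 127 of 129 barcoded libraries entered the fit, 21 of them from the time course, after 2 with 6403 and 7981 counts were left out. According to the study's methods the deposited counts per gene are unnormalized counts of unique molecular identifiers from the CEL-Seq2 pipeline. Its alignment step was Bowtie2 (build mm10), and genes were those of GENCODE vM13. The deposited log2 values, CPM after the authors' size-factor normalization and batch regression, served as an alternative only. Column names gave the day or siRNA of a library. The replicate number is that of the sequenced pool in the labels.

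Counts were tested with edgeR 4.0.16 (glmQLFit, TMM, filterByExpr by condition, a term per condition and replicate as block), with Benjamini-Hochberg adjustment over 3013 genes and a threshold of 0.05. SEs came from the test statistic. The correlation of deviations between day 2 and day 3 libraries was 0.0540, 0.141 and 0.231 for equal replicate numbers and -0.162 to 0.00705 for unequal ones. The block was kept because a number marks a shared pool. Replicates differed by more than sampling noise (chi-square per gene 1.30 to 2.02). Alternatives were RLE size factors, no filter, a stricter filter of a mean of 10 counts, DESeq2 1.42.0, limma 3.58.1 on the log2 values, no replicate block, other library sets and leaving out replicates. Named genes were the 12 largest changes per direction among called genes with a mean of 50 CPM on a day and 1 sign in 3 replicates, plus called members or the 2 most abundant members of each list. Further genes in the text, called genes in no list and other list members, were chosen after their values were seen. The members, lists and comparison were chosen with earlier results of these data known. Positions are those of GENCODE vM21 on GRCm38. A copy was near-identical at 95% identity over 100 of the last 300 bases (blastn 2.17.0). Intervals are exact and cover counting error only. Scripts were tested on simulated data.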

Additional observations from a re-analysis of the deposited data

Results flagged for a closer look

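For 23 of the 24 genes with the largest changes, 12 in each direction, the step from day 3 to day 4 differed from the step from day 2 to day 3 in a test of the difference itself (edgeR, adjusted p under 0.05). Over all 3013 genes tested, 283 passed this test (9.39%). The day 3 libraries enter both steps with opposite sign, and the genes were chosen for their step to day 3, so that a chance deviation on day 3 moves these differences as well. As log2 differences, day 4 step minus day 3 step, the raised genes had -5.81 for Gm26315, -5.62 for Rn7sk, -5.30 for Akr1b3, -5.08 for Hspa1b, -4.32 for Mmp3, -3.61 for Spp1, -3.47 for Apbb2, -3.40 for Tshz1, -3.36 for Dcn, -3.03 for Dync1h1 and -2.38 for Dst. The lowered genes had 7.2 for Sf3b5, 5.89 for Lsm7, 5.22 for Npm3, 4.29 for Pclaf, 4.29 for Hells, 3.89 for Pdha1, 3.81 for Srm, 3.81 for Tuba1b, 3.77 for Hmmr, 3.55 for Rps21, 2.48 for Tubb5 and 2.17 for Gm10722. Of these 24, Lama4 was the gene for which the difference did not pass.

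The step to day 3 also differed from the step before it for Sf3b5 (-3.76), Npm3 (-3.27) and Gm10722 (-3.17), with adjusted p of 0.0252, 0.0318 and 0.000676. These steps share the day 2 libraries in the same way. Gm10722 had means of 80.6 CPM on day 1, 280.3 CPM on day 2 and 101 CPM on day 3.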

How the results depend on the processing

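None of the 85 called genes changed direction in those of the 11 alternatives that gave it a value (68 genes with DESeq2, 74 with the stricter filter). The 85 calls (44 higher, 41 lower) became 130 (100 and 30) with RLE size factors, 48 (21 and 27) with no filter, 41 (10 and 31) with limma on the deposited log2 values, 143 (80 and 63) with the 21 time course libraries, 154 (87 and 67) with the 6 libraries of both days, 22 (13 and 9) with no replicate block, and 16 to 49 (14 to 25 and 2 to 24) when a replicate was left out. DESeq2 called 67 higher and 27 lower, and a stricter filter 104 in all. With day 4 in place of day 3, chosen after seeing the data, 23 were higher. Without the block 63 of the 85 genes lost the call, and 6 genes (Ctsb, Tubb5, Spp1, Malat1, Cyb5a and Pclaf) passed in all 11 alternatives.

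The 32 called list genes became 52 with the 21 and 55 with the 6 libraries, 14 with limma, 20 with no filter, 10 with no replicate block and 9 to 20 without a replicate. The 29 genes whose step to day 3 differed from the step before became 16 with RLE size factors, 1 with limma, 18 with no filter, 6 with no replicate block and 3 to 11 without a replicate. The 283 for the step after became 163 with limma, 162 with no filter, 156 with no replicate block and 94 to 163 without a replicate. From day 1 to day 2 the 145 became 25, 77, 49 and 46 to 87 in the same order, and from day 3 to day 4 the 360 became 196, 225, 228 and 149 to 219. The causes were not tested.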
